A study of Mus musculus with 6 samples.

Results

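Processed pseudogenes are copies of spliced messenger RNAs that were reverse transcribed and inserted elsewhere in the genome, so they lack the introns and usually the promoter of the parent gene. They arise mostly from short genes that are strongly expressed in the germ line, such as those of ribosomal proteins, and many mouse genes have several of them. Most are not translated, but a copy that lands near a promoter or within another gene can be transcribed. Where a copy is recent, its sequence is almost that of the parent mRNA, and a short read can match both.

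The 200 processed pseudogenes described here have the highest mean FPKM (reads scaled to the length of the gene and the depth of the library) over 6 RNA sequencing libraries of mouse ovary, among the 9497 genes that the deposited table types as processed pseudogenes. The table lists 54532 genes in all. Of the 9497 processed pseudogenes, 3985 were above 0 in at least 1 library and 1046 had a mean FPKM of at least 0.5, the minimum for testing, which all 200 passed. The members were thus chosen by their FPKM in these same libraries, and their level is given below as a description. The 200th member, *Gm11353*, had a mean of 8.24 FPKM and the 201st gene, *Gm10704*, 8.23. Just inside the limit, *Gm2614* had a mean of 8.45 and *Rpl30-ps10* one of 8.37, and just outside it *Gm21769* had 8.17 and *Gm13803* 8.13. Ranked by the Ctrl libraries alone, 195 of the 200 stayed members. The other 5, *Gm6969*, *Gm14253*, *Gm10819*, *Gm13597* and *Rpl30-ps10*, owed their place to their cKO values.

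The libraries were 3 Ctrl and 3 cKO, each of whole ovaries of C57BL/6 mice at 16.5 dpc (days post-coitus). The labels give the Ctrl genotype as wild type. The cKO mice carried the *Stra8-GFPCre* transgene and *Srsf1* Fl/Fl, in which Cre removes exons of *Srsf1*, the gene of an SR family splicing factor, in oocytes from the start of meiosis on, while the somatic cells of the ovary keep the gene. The sources used here do not say how many ovaries went into a library.

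*Srsf1* itself was at 80.2, 70.1 and 63.1 FPKM in Ctrl 1, 2 and 3 and at 32.4, 37.0 and 36.4 in cKO 1, 2 and 3, with every cKO library below every Ctrl library. Between 14212164 and 16784241 reads per library fell on genes. One protocol field among the labels speaks of retinas, but the summed level of 6 retina markers was between 0.119 and 0.565 FPKM and all 6 were under 0.5 FPKM in every library. The 6 germ-cell markers summed to between 83.4 and 311 FPKM in Ctrl and between 147 and 459 in cKO. The 6 red blood cell markers summed to between 4847 and 22971 FPKM in Ctrl and between 1597 and 10388 in cKO. In both lists the groups overlapped, and the level of these markers thus differed between libraries of 1 group. In RNA of whole ovaries, fewer cells of a type and less RNA per cell cannot be told apart.

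Together the 200 members took between 0.482% and 0.647% of the reads on genes, and all processed pseudogenes took between 0.598% and 0.802%. No member was at 0 in any library. The lowest value of a member was 5 reads, and the median member had between 153 and 231.5 reads per library. Their mean levels ran from 8.24 to 494 FPKM with a median of 20.2, and 23 of them had a mean of at least 100. The members were between 78 and 2406 bases long, with a median of 479. They were spread over 20 chromosomes, with 16 on the X. The table gives no gene structure, so GENCODE M21 on the same build (GRCm38) was used: 130 members overlapped no other gene, 40 lay in an intron of a gene on the opposite strand, 25 in an intron of a gene on the same strand, and 5 overlapped an exon of another gene.

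Each member was aligned to the protein-coding transcripts of GENCODE M21, and the gene with the best match was taken as its parent. All 200 had one, and 153 different parents were found, of which 32 had more than 1 member. The best match need not be the gene that was copied. *Rps12-ps3*, whose symbol names a pseudogene, was among these parents. The median identity was 99.5% and the lowest 81.9%. Of the 200, 39 were identical to a transcript of the parent over the aligned stretch, 139 had an identity of at least 99%, and only 6 were under 95%. Another annotated pseudogene, processed or of another type, of at least 98% identity existed for 96 members. The sources used here do not say how the counting treated reads that match several places, or whether it used strand. For copies so alike, part of the reads could belong to the parent or to another copy, and every level below is that of reads assigned to the pseudogene.

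Ribosomal proteins were the parents of 80 of the 200 members, with 51 different parents, and these members took between 56.8% and 60.0% of the reads on members. Chromatin proteins followed with 13 members, 5 of them copies of *Hmgb1*, which encodes a DNA-bending protein of the high mobility group. Mitochondrial proteins of the ATP synthase, cytochrome c oxidase and complex I had 9 members, translation factors 7, and the ubiquitin and proteasome group 7. Glycolysis had 3, and folding (*Ppia*) and the cytoskeleton (*Tmsb10*) 1 each. The other 79 members came from 71 parents of mixed function.

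Of the 10 members with the highest mean, 9 were ribosomal. *Rpl17-ps10*, at chr7:72648757-72649311, stood first with 469, 264 and 475 FPKM in Ctrl and 698, 388 and 669 in cKO. *Rpl17-ps3*, a second copy of the same large-subunit protein gene at chr12:67510756-67511311, followed with 441, 349 and 437 FPKM in Ctrl and 400, 410 and 587 in cKO. *Rpl17* itself lay between 445 and 623 FPKM, so that both copies were listed near the level of the parent. In both copies the groups overlapped.

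*Rps10-ps2*, at chr16:20822145-20822640, was the third, with 431, 413 and 448 FPKM in Ctrl and 487, 468 and 346 in cKO. *Rps10*, which encodes a protein of the small subunit and is 98.99% identical to this copy, was listed at 3.08 to 5.08 FPKM. The next were *Gm9794* (parent *Rpl23*, mean 302 FPKM), *Gm10443* (*Rps28*, 298), *Gm15772* (*Rpl26*, 270) and *Rpl34-ps1* (*Rpl34*, 261). They were followed by *Tpt1-ps3*, with a mean of 247 FPKM, *Gm4332* (*Rps20*, 238) and *Gm6136* (*Rpl6*, 217). *Tpt1* encodes the translationally controlled tumour protein, and *Tpt1-ps3* was the only one of the 10 without a ribosomal parent. *Gm6136* was the steadiest of them, with 223, 226 and 224 FPKM in Ctrl and 226, 202 and 199 in cKO, in an intron of *Dis3l2* on the opposite strand, a gene at 3.19 to 3.67 FPKM. *Gm15772* and *Rpl34-ps1* were the least steady and are described below.

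FPKM divides by the length of all exons of a gene, and the parents are longer than their copies (*Gapdh*, for example, has 4133 bases and its copy *Gm13394* has 1000). On this scale, 42 of the 200 members had a higher mean than the parent, and the median member was at 0.370 times the level of its parent. In reads, 10 members were above the parent, and the median member had 0.0662 times as many. The 10 were *Rps10-ps2* and *Rps10-ps1*, *Rpl21-ps15*, *Dynlt1-ps1*, *Gm15920*, *Mpc1-ps*, *Gm13394*, *AA414768*, *Gm7730* and *Gstp-ps*. *Rps10-ps2* had 20470 reads over the 6 libraries against 851 for *Rps10*. *AA414768* had 3460 against 20 for *E330021D16Rik*, a match of only 83.9% identity. *Gm7730* had 732 against 42 for *Nme2*, a nucleoside diphosphate kinase gene.

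**Figure D1:**
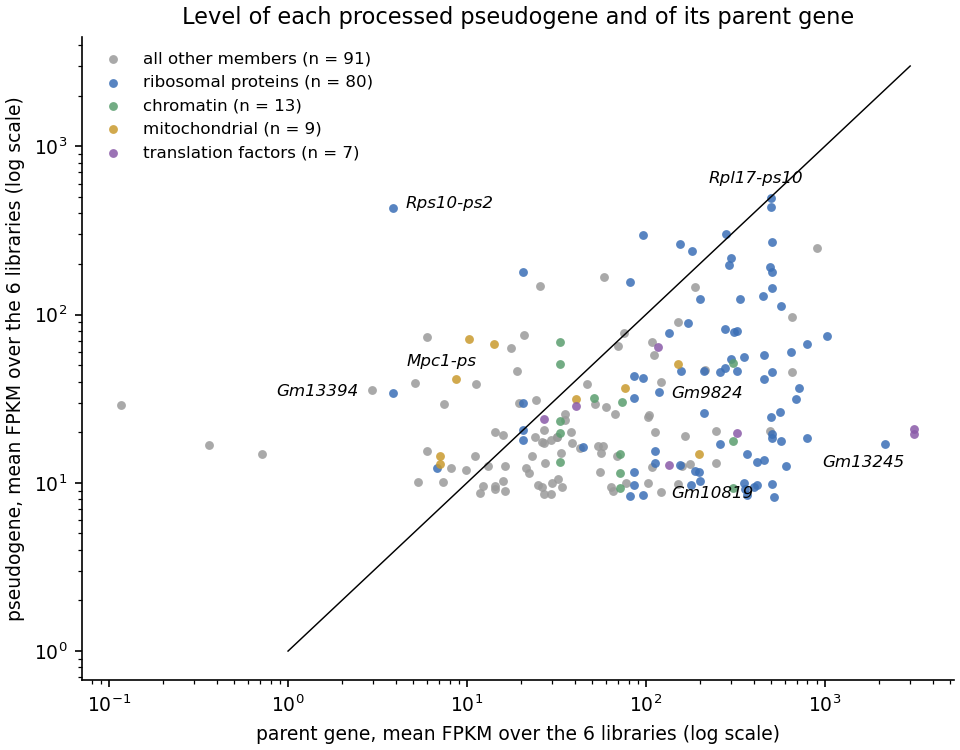
Mean FPKM of each of the 200 processed pseudogenes (vertical axis, log scale) against that of its parent gene (horizontal axis, log scale), coloured by the group of the parent, with a line where both are equal. The 42 points above the line are members with a higher FPKM than the parent, among them *Rps10-ps2*, at 111 times the FPKM of *Rps10*.

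To ask whether the members differed between genotypes, log2(FPKM + 1) of cKO was compared with that of Ctrl by limma, two-sided, over all 17180 genes with a mean of at least 0.5 FPKM. The added 1 makes the change of low genes look smaller than it is. At an unadjusted p below 0.05, the limit used by the paper, 6 members were higher in cKO and 3 lower. That is 9 of 200 or 4.5%, against 4.43% of all genes tested (2.68% higher and 1.75% lower), a share near that of genes at large. The 6 include *Gm10819*, which is a member only through its cKO values, and *Gm9824*, which was known to stand higher. The 3 include *Gm13394*, which is a member only through Ctrl 2 and Ctrl 3. Nothing about the members is thus read from this count. The median log2 fold change was −0.04 over the members and −0.01 over all genes tested, with 89 members above 0 and 111 below. At a Benjamini-Hochberg adjusted p below 0.05 no member passed and none of the 17180 genes tested did (761 genes passed unadjusted). With limma on the recovered reads (voom), 4 members were higher and 0 lower at the unadjusted limit.

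The groups did not overlap in 9 members, or 4.5%, against 8.68% of all genes tested. In 7 of these every cKO library was above every Ctrl library. Leaving out cKO 2 changed the counts most, to 16 members higher and 21 lower, and over all genes tested to 1457 higher and 1036 lower.

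**Figure D2:**
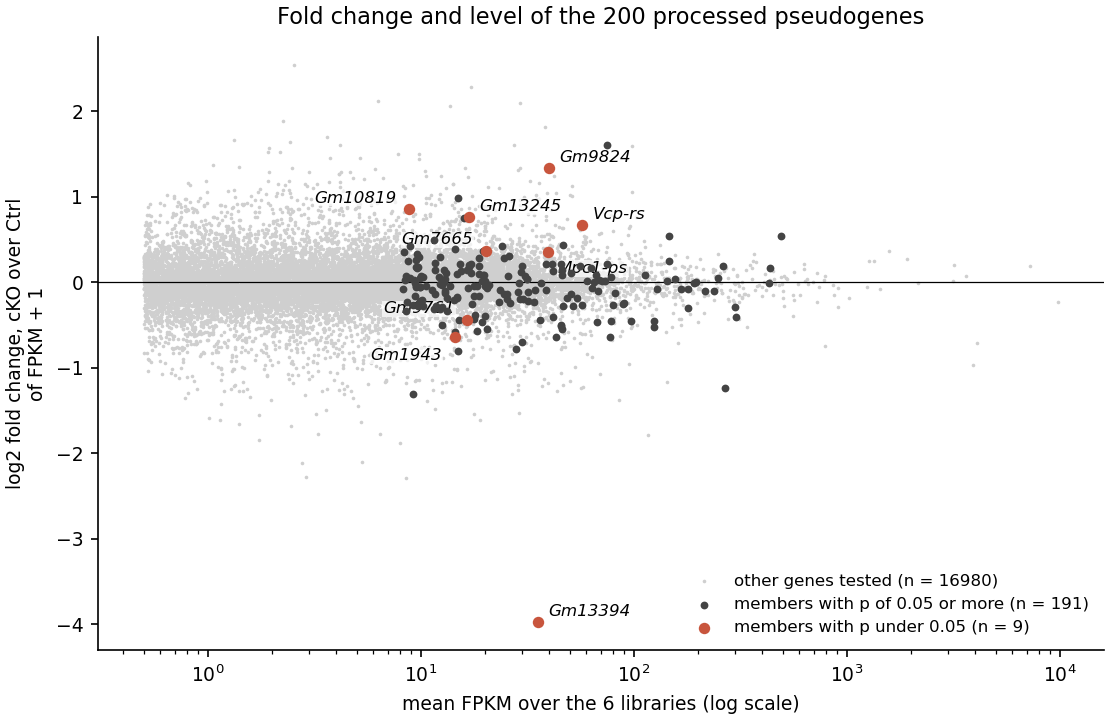
Log2 fold change of FPKM + 1, cKO over Ctrl (vertical axis), against mean FPKM over the 6 libraries (horizontal axis, log scale) for the other genes tested in grey, the 191 members with an unadjusted p of 0.05 or more in black and the 9 members below it in red. *Gm9824* and *Gm10819* lie among the rises and *Gm13394* lies far below all others at −3.98, although its groups overlap.

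The 6 members that were higher were *Gm9824*, *Gm10819*, *Gm13245*, *Vcp-rs*, *Gm7665* and *Mpc1-ps*, and in all 6 the groups stood apart. *Gm9824* and *Gm10819* were known from earlier results to stand higher in cKO, so their values are a description. Both are copies of *Pebp1*, which encodes the phosphatidylethanolamine binding protein, an inhibitor of Raf kinase signalling, and they were the only members with this parent.

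*Gm9824* (ENSMUSG00000095478, chr10:29030128-29030688, plus strand) was at 19.3, 30.4 and 17.7 FPKM in Ctrl 1, 2 and 3, from 162, 276 and 173 reads. In cKO 1, 2 and 3 it was at 57.9, 68.2 and 45.8, from 502, 642 and 365 reads. The lowest cKO library was thus above the highest Ctrl library, and the means were 22.4 ± 6.94 and 57.3 ± 11.2 FPKM (SD, n = 3 each). The log2 fold change was 1.34 with an SE of 0.24.

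*Gm10819* (ENSMUSG00000075268, chr19:16267061-16267621, minus strand) was lower, at 6.42, 5.50 and 6.02 FPKM in Ctrl, from 54, 50 and 59 reads, and at 13.4, 11.9 and 9.92 in cKO, from 116, 112 and 79 reads. Here too no cKO library reached down to the Ctrl range, with means of 5.98 ± 0.458 and 11.7 ± 1.73 FPKM (SD, n = 3 each) and a log2 fold change of 0.86 with an SE of 0.14.

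The parent did not share this order. *Pebp1* (chr5:117282654-117287625) was at 135, 142 and 128 FPKM in Ctrl and at 88.6, 161 and 77.3 in cKO, so that its groups overlapped (two-sided exact permutation p = 0.4, where 3 libraries against 3 cannot go below 0.1). In RPM, reads scaled to the total on genes of the library, *Pebp1* and both copies summed to 257 ± 18.9 in Ctrl and 231 ± 86.8 in cKO (SD, n = 3 each; exact permutation p = 0.7). Of this sum, the copies held 5.71%, 7.44% and 5.55% in the Ctrl libraries, again by number, against 20.3%, 13.6% and 18.6% in the cKO libraries. The lowest cKO share was above the highest Ctrl share, which follows in part from the choice of both copies.

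**Figure D3:**
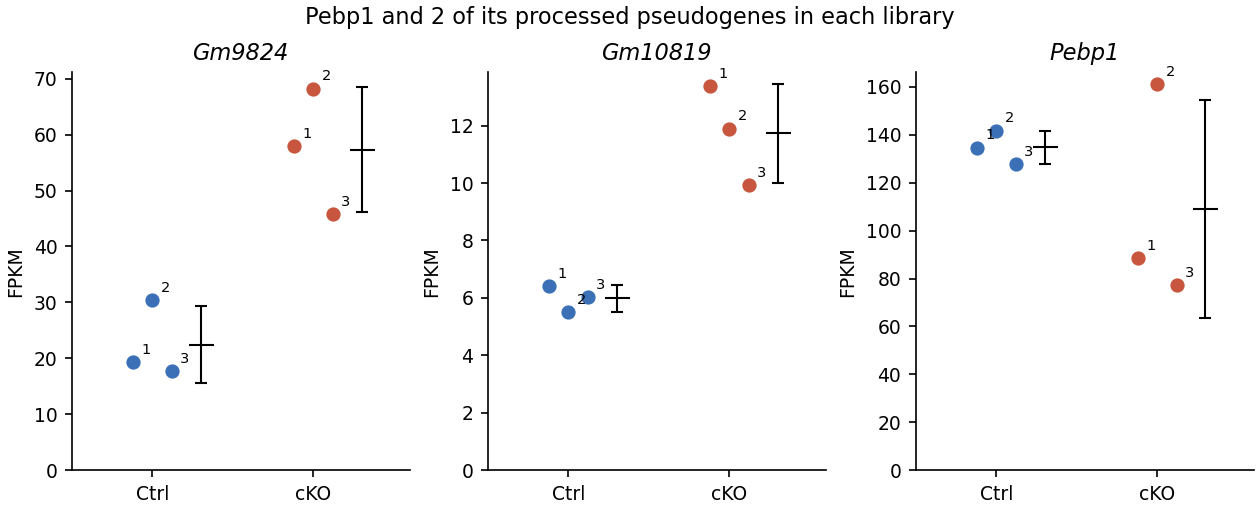
FPKM of *Gm9824*, *Gm10819* and *Pebp1* (vertical axes, from 0) in each of the 3 Ctrl (blue) and 3 cKO (red) libraries, numbered by replicate, with the mean and SD as a bar beside the points. Both copies are higher in every cKO library, at 45.8 to 68.2 and 9.92 to 13.4 FPKM, while *Pebp1* in cKO 2 is above all Ctrl libraries and in cKO 1 and 3 below them.

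The copies and the parent differ at few bases, which decide where a read can be placed. Over 561 aligned bases *Gm9824* had 6 substitutions against the *Pebp1* transcript (98.9% identity), and *Gm10819* had 2 substitutions and 3 gap positions (99.1%). The copies were 98.2% identical to each other and shared both substitutions of *Gm10819*, T285C and T491C (base of the parent, position counted from 1 at the first base of the aligned stretch of the parent transcript, base of the copy). The stretch from base 453 to base 527, within the coding sequence of *Pebp1*, is shown because it holds a base common to both copies (T491C) and a pair, C465A and G514A, found in *Gm9824* alone; capitals mark the bases at which copy and parent differ (GENCODE M21 transcripts, GRCm38).
Gm9824: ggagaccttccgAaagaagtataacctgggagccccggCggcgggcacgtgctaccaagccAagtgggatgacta
Gm10819: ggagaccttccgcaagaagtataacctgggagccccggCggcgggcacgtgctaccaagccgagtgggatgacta
Pebp1: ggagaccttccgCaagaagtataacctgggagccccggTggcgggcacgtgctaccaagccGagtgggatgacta

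Both copies lie within introns of other genes on the opposite strand. *Gm30619*, the host of *Gm9824*, was listed at 0 in all 6 libraries. *Gnaq*, a G protein subunit gene and the host of *Gm10819*, was at 15.01, 13.8 and 13.0 FPKM in Ctrl and 14.9, 14.3 and 14.7 in cKO, with overlapping groups and a log2 fold change of 0.07 with an SE of 0.11.

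*Vcp-rs*, at chrX:104345829-104348234 and with 2406 bases the longest member, is a copy of *Vcp*, the gene of an AAA ATPase that extracts ubiquitinated proteins. It was at 42.9, 43.4 and 43.6 FPKM in Ctrl and at 60.0, 57.6 and 97.0 in cKO. The Ctrl libraries were almost equal and every cKO library was above them, cKO 3 by most. The log2 fold change was 0.67 with an SE of 0.21 (limma, unadjusted p = 0.0150, adjusted p = 0.978). *Vcp* was at 110, 92.5 and 110 FPKM in Ctrl and 130, 113 and 111 in cKO. These groups did not overlap either, but the log2 fold change of 0.18 with an SE of 0.13 did not pass.

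*Gm13245*, at chr4:146480667-146480926, is the copy of a ribosomal stalk protein gene, *Rplp1*, but with an identity of 89.8% one of the least similar to its parent. It was at 13.1, 15.4 and 8.81 FPKM in Ctrl and 22.9, 22.0 and 19.2 in cKO, from 40 to 96 reads. Every cKO library was above every Ctrl library, and the log2 fold change was 0.76 with an SE of 0.20 (limma, unadjusted p = 0.00747). *Rplp1* was between 1961 and 2424 FPKM with a log2 fold change of −0.01. *Gm26573*, in an intron of which the copy lies on the opposite strand, held at most 1 read in any library.

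The other rises were smaller. *Mpc1-ps* (parent *Mpc1*, a subunit of the mitochondrial pyruvate carrier) was at 33.7, 30.7 and 39.4 FPKM in Ctrl and 46.4, 42.6 and 43.8 in cKO. Its log2 fold change was 0.35 with an SE of 0.13 (limma, unadjusted p = 0.0289). *Gm7665* (parent *S100a11*, a calcium-binding protein) was at 20.7, 16.0 and 16.0 FPKM in Ctrl and 24.8, 21.3 and 22.5 in cKO, with a log2 fold change of 0.37 and an SE of 0.14 (limma, unadjusted p = 0.0344). For both, the nearest libraries of the groups were under 4 FPKM apart. Each lost its call in 4 of the 6 fits with 1 library left out and under voom, and *Mpc1-ps* lost it under quantile normalization and with a replicate block as well.

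In each of the 3 members that were lower in cKO the groups overlapped. *Gm13394*, a copy of the glycolytic enzyme gene *Gapdh* at chr2:28933610-28934609, was at 1.07, 100.8 and 109 FPKM in Ctrl and at 0.905, 1.07 and 0.493 in cKO. In reads these were 16, 1632 and 1898 against 14, 18 and 7. Ctrl 1 was thus as low as the cKO libraries, and the log2 fold change of −3.98 with an SE of 1.46 (limma, unadjusted p = 0.0302) rested on Ctrl 2 and Ctrl 3. The exact permutation test gave p = 0.2. The call held in 1 of the 6 fits with a library left out, the one without Ctrl 1, and there the log2 fold change was −5.87. *Gapdh* was listed at only 2.52 to 3.59 FPKM in all libraries, and *Cfap77*, which holds the copy in an intron on the same strand, at 0.212 to 0.568.

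*Gm1943* (parent *Wdr70*, identity 100%) was at 13.8, 22.4 and 17.1 FPKM in Ctrl and at 10.04, 15.4 and 8.10 in cKO, from 20 to 63 reads. *Gm9761*, a copy of the SR protein gene *Srsf3*, was at 17.3, 22.0 and 18.03 FPKM in Ctrl and at 17.5, 13.2 and 11.3 in cKO. In both, 1 cKO library reached into the Ctrl range. Their unadjusted p values in limma were 0.0443 and 0.0476, close to the limit, and neither passed under voom. With 1 library left out, *Gm1943* passed in 2 of 6 fits and *Gm9761* in 1 of 6, and *Gm9761* did not pass without the intensity trend or with a replicate block either. *Srsf3* was between 47.8 and 58.9 FPKM with a log2 fold change of 0.08.

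Apart from *Gm13245*, no ribosomal member passed the unadjusted limit, so that 1 of 80 was higher and 0 lower, against 2.68% and 1.75% of all genes tested. The median log2 fold change of the 80 was −0.08, with 33 above 0 and 47 below. Their summed level was 5608, 6789 and 7310 FPKM in Ctrl and 6281, 6039 and 6130 in cKO, with all cKO libraries inside the Ctrl range (exact permutation p = 0.5). In *Rpl36a-ps2* and *Gm10335*, a copy of *Rpl23a*, every cKO library was below every Ctrl library, but neither passed (limma, unadjusted p = 0.155 and 0.0904). *Rpl36a-ps2* was at 90.2, 109 and 90.4 FPKM in Ctrl and 87.8, 88.6 and 67.8 in cKO. *Gm10335* was at 23.5, 20.1 and 21.5 FPKM in Ctrl and 18.9, 17.95 and 8.43 in cKO.

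None of the 13 chromatin members passed in either direction, against 4.43% of all genes tested, a share at which 13 members may hold no call. Their median log2 fold change was −0.19, with 3 above 0 and 10 below, against −0.01 over all genes tested. The 13 came from only 5 parents, so they are not independent of each other. Their summed level was 335, 371 and 380 FPKM in Ctrl and 352, 381 and 292 in cKO, with overlapping groups (exact permutation p = 0.7). Only cKO 3 was below the Ctrl range. The 5 *Hmgb1* copies ran from *Gm5518*, at 66.2, 70.7 and 71.9 FPKM in Ctrl and 62.7, 91.3 and 47.3 in cKO, down to *Gm15387*, which had 17.0, 10.96 and 17.0 FPKM in Ctrl against 13.0, 14.2 and 8.15 in cKO. *Hmgb1* encodes an abundant chromatin protein. At 33.3 FPKM its mean was below that of *Gm5518* and *Gm5527* (50.6 FPKM), but FPKM divides its reads by 5023 bases. In reads neither copy was above *Hmgb1*. Copies of *Npm1*, the gene of the nucleolar protein nucleophosmin, and of the histone variant gene *H3f3a* made up 3 members each.

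None of the 7 translation factor members, 9 mitochondrial members and 7 members of the ubiquitin and proteasome group passed, against 4.43% of all genes tested, a share at which groups of this size may hold no call. Their median log2 fold changes were 0.00, 0.02 and 0.17. *Eif4a-ps4*, a copy of the helicase gene *Eif4a1*, was among the steadiest members, at 67.9, 60.1 and 68.1 FPKM in Ctrl and 67.5, 66.6 and 53.5 in cKO. So was *Gm10221*, a copy of the ATP synthase subunit gene *Atp5l*, at 74.2, 64.8 and 73.9 FPKM in Ctrl and 74.5, 74.2 and 66.6 in cKO. *Gm10039*, a copy of another subunit gene, *Atp5g1*, was at 52.7, 94.8 and 89.0 FPKM in Ctrl and 52.2, 54.1 and 58.8 in cKO (limma, log2 fold change −0.47, SE 0.23, unadjusted p = 0.0816). Its Ctrl 1 value lay among the cKO values. *Atp5g1* moved the other way and was higher in cKO, at 14.2, 10.95 and 10.4 FPKM in Ctrl against 14.8, 16.5 and 17.8 (limma, log2 fold change 0.45, SE 0.15, unadjusted p = 0.0213).

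*Srsf1* encodes a splicing factor, and 14 members were copies of 10 genes for splicing factors or other RNA-binding proteins. These genes were *Srsf3*, *Srsf5*, *Hnrnpa1*, *Hnrnpa3*, *Hnrnpk*, *U2af1*, *Lsm5*, *Lsm7*, *Snrpe* and *Rbm3*, a list drawn up after their values had been seen. Of the 14, only *Gm9761* passed, against 4.43% of all genes tested, and nothing about the list is read from 1 call. The log2 fold changes of the 14 lay between −0.54 and 0.22, with 8 above 0. *Gm7964*, a copy of *Hnrnpk*, was at 65.7, 73.0 and 66.5 FPKM in Ctrl and 65.6, 71.1 and 72.5 in cKO, with overlapping groups. *Gm12966*, the copy of the SR protein gene *Srsf5*, was at 10.9, 12.6 and 14.98 FPKM in Ctrl and 14.2, 12.3 and 12.4 in cKO.

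Over the 198 members whose parent was also tested, the log2 fold changes of member and parent had the same sign in 113. The pairs share libraries and may share reads. The 151 distinct parents tested had a median log2 fold change of −0.0048, and 4 were higher and 1 lower at the unadjusted limit (3.31%, against 4.43% of all genes).

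The members spread widely between libraries of the same group. The median SD of log2(FPKM + 1) within groups was 0.36 over the members, 0.22 over all genes tested and 0.21 over the parents. Over the 846 other processed pseudogenes tested it was 0.39, so a wide spread was not particular to the members. In 11 members (5.50%) the highest library had at least 10 times the FPKM of the lowest. Of the 6654 protein-coding genes with at least the mean of the lowest member, 38 did (0.571%). A range of at least 4 times was seen in 25 members (12.5%) and in 198 of these protein-coding genes (2.98%). The lists were matched on FPKM and not on reads, and the members are short, with a median of 479 bases. Both lists were also chosen by mean FPKM in these same libraries, so a gene can enter through the few in which it is high. *Gm4735*, for example, was at 35.8 FPKM in Ctrl 3 and at 2.33 to 5.36 in the other libraries. The parts of read number and of this choice in the ranges were not tested. In all 11 members the Ctrl and cKO groups overlapped. The ribosomal members were not alone in this, with 4 of 80 at 10 times or more against 7 of the 120 others.

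**Figure D4:**
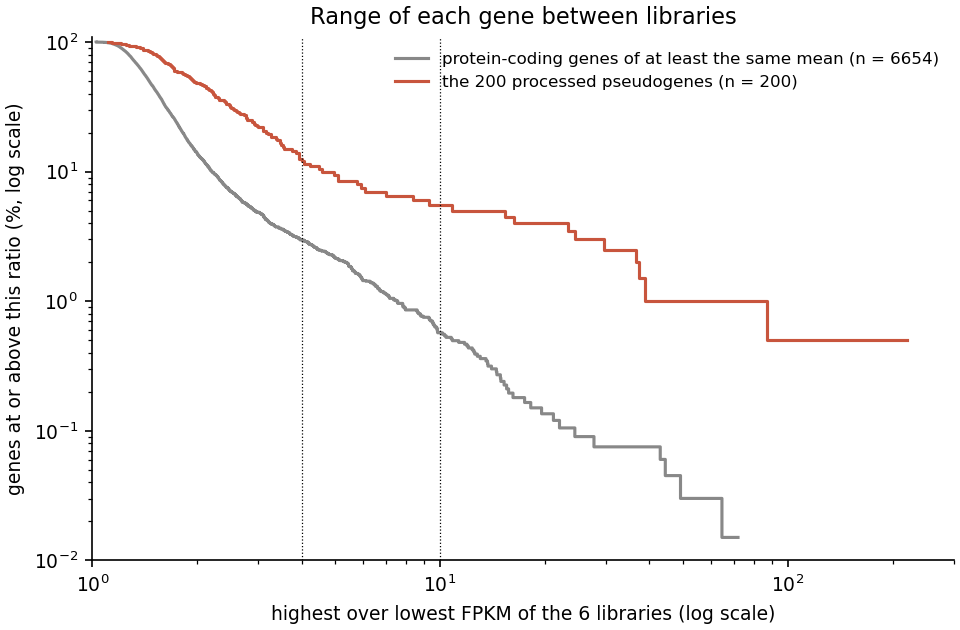
Share of genes (vertical axis, %, log scale) whose highest library has at least the given multiple of the FPKM of the lowest (horizontal axis, log scale), for the 200 processed pseudogenes in red and the 6654 protein-coding genes of at least the same mean level in grey, with dotted lines at 4 and 10. The red curve lies above the grey one, with 12.5% against 2.98% at 4 times and 5.50% against 0.571% at 10 times. Both lists were chosen by mean FPKM in these same libraries.

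The 5 members with the largest SD within groups were *Gm8730*, *Rpl34-ps1*, *BC002163*, *Gm7993* and *Gm13394*. For these, and for *Gm12191* and *Gm15772*, reads are given beside those of the parent, since reads of both can be set on 1 scale. To show how little separates the copies from their parents, 75 bases of the coding sequence of 5 of these pairs are given, with the differing bases in capitals and positions counted as above (GENCODE M21 transcripts, GRCm38). *Gm13394* has a single substitution (A346C) in 1000 aligned bases, and *Rpl34-ps1*, *Gm15772* and *BC002163* have 2 each, of which T132C, C177T and the pair T81C and A105G are shown. *Gm8730* has 12 in 954, of which A390G, A393G and A447T are shown.
Rpl34-ps1: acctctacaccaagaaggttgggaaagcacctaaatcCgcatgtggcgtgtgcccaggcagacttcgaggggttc
Rpl34: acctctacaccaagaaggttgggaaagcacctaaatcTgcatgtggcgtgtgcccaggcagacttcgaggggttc
Gm15772: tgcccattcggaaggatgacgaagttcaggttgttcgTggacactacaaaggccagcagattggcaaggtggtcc
Rpl26: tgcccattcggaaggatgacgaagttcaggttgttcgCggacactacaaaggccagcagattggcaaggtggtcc
Gm8730: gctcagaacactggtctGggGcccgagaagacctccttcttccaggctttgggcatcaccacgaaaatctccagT
Rplp0: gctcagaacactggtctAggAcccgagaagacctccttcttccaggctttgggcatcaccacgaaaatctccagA
BC002163: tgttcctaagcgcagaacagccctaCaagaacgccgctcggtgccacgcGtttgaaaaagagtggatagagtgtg
Ndufs5: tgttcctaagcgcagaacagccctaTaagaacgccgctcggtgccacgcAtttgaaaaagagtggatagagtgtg
Gm13394: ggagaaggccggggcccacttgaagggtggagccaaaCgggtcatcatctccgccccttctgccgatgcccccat
Gapdh: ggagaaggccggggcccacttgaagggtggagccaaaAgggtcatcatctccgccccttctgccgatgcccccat

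*Rpl34-ps1* (chr6:71124610-71124963), the copy of a large-subunit protein gene, counted 137, 3837 and 226 reads in the Ctrl libraries, in order of their numbers, against 191, 211 and 3850 in the cKO libraries. *Rpl34* had 7207, 4012 and 8993 reads in Ctrl and 7221, 8138 and 3553 in cKO. The copy was thus high in Ctrl 2 and cKO 3, and in these same libraries the parent was lowest. The copy held 48.9% and 52.0% of their joint reads there, and 1.87% to 2.58% in the other 4. The joint reads of both were between 472 and 550 RPM, a range of 1.16 times, while the copy alone ranged 30.7 times.

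*Gm15772* (chr5:3236431-3236868) was high in Ctrl 3 only, with 490, 622 and 9196 reads in Ctrl and 640, 543 and 529 in cKO. *Rpl26* was lowest in that library, with 11352, 10809 and 6732 reads in Ctrl and 13524, 11371 and 14225 in cKO. The copy held 57.7% of the joint reads in Ctrl 3 and 3.59% to 5.44% in the others. The joint reads were at 951 RPM in Ctrl 3 and ran from 710 to 1038 in the others. The log2 fold change of *Gm15772*, −1.24 with a confidence interval from −3.62 to 1.14, came from Ctrl 3 alone.

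*BC002163* (chr16:42955631-42955949) is a copy of *Ndufs5*, the gene of a complex I subunit. It had 26, 7 and 657 reads in Ctrl and 19, 34 and 243 in cKO, and so was high in Ctrl 3 and cKO 3. *Ndufs5* had 636, 733 and 177 reads in Ctrl and 810, 929 and 73 in cKO, with its lowest values in the same pair of libraries. The copy held 78.8% and 76.9% of the joint reads in them and 0.946% to 3.93% in the others. Here the joint reads were not level, at 22.2 RPM in cKO 3 and 42.6 to 57.4 in the other 5. *Zbtb20*, the host gene on the same strand, was at 0.628 to 0.946 FPKM.

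*Gm8730* (chr8:102864845-102865798) is a copy of the ribosomal stalk gene *Rplp0*. It had 96, 69 and 1891 reads in Ctrl and 2343, 67 and 2196 in cKO. Its log2 fold change of 1.603 was the largest rise of a member, but the groups overlapped widely and the SE was 1.66 (limma, unadjusted p = 0.366). *Rplp0* had 20199 to 31588 reads, and in RPM it was lowest in the 3 libraries in which the copy was high. The joint reads were not level. They were at 1576 to 1679 RPM in these libraries and at 1774 to 2038 in the others.

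*Gm12191* (chr11:49678710-49679057), a copy of *Rpl30*, had 60, 1507 and 1506 reads in Ctrl and 1249, 133 and 796 in cKO. It was low in Ctrl 1 and cKO 2, where *Rpl30* was highest, with 5064 and 5728 reads against 2729 to 3487 in the other 4. The joint reads were at 330 and 349 RPM in this pair and at 248 to 306 in the other 4. *Cnot6*, which holds this copy in an intron on the same strand, was at 26.5 to 40.4 FPKM. *Gm7993* (chr5:95974240-95975623) is a copy of *Odc1*, which encodes the first enzyme of polyamine synthesis. It was low in the same pair, with 25, 865 and 1084 reads in Ctrl and 641, 30 and 716 in cKO. *Odc1* itself was lower in cKO, at 149, 108 and 109 FPKM in Ctrl and 83.6, 83.1 and 89.5 in cKO (limma, log2 fold change −0.50, SE 0.16, unadjusted p = 0.0168), while *Gm7993* had a log2 fold change of −0.20 with an SE of 1.48. *Eif3s6-ps2*, a copy of the initiation factor gene *Eif3e*, was low in Ctrl 1 and cKO 2 as well, with 16, 116 and 136 reads in Ctrl and 160, 5 and 155 in cKO, but *Eif3e* was level at 36.1 to 44.9 FPKM.

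**Figure D5:**
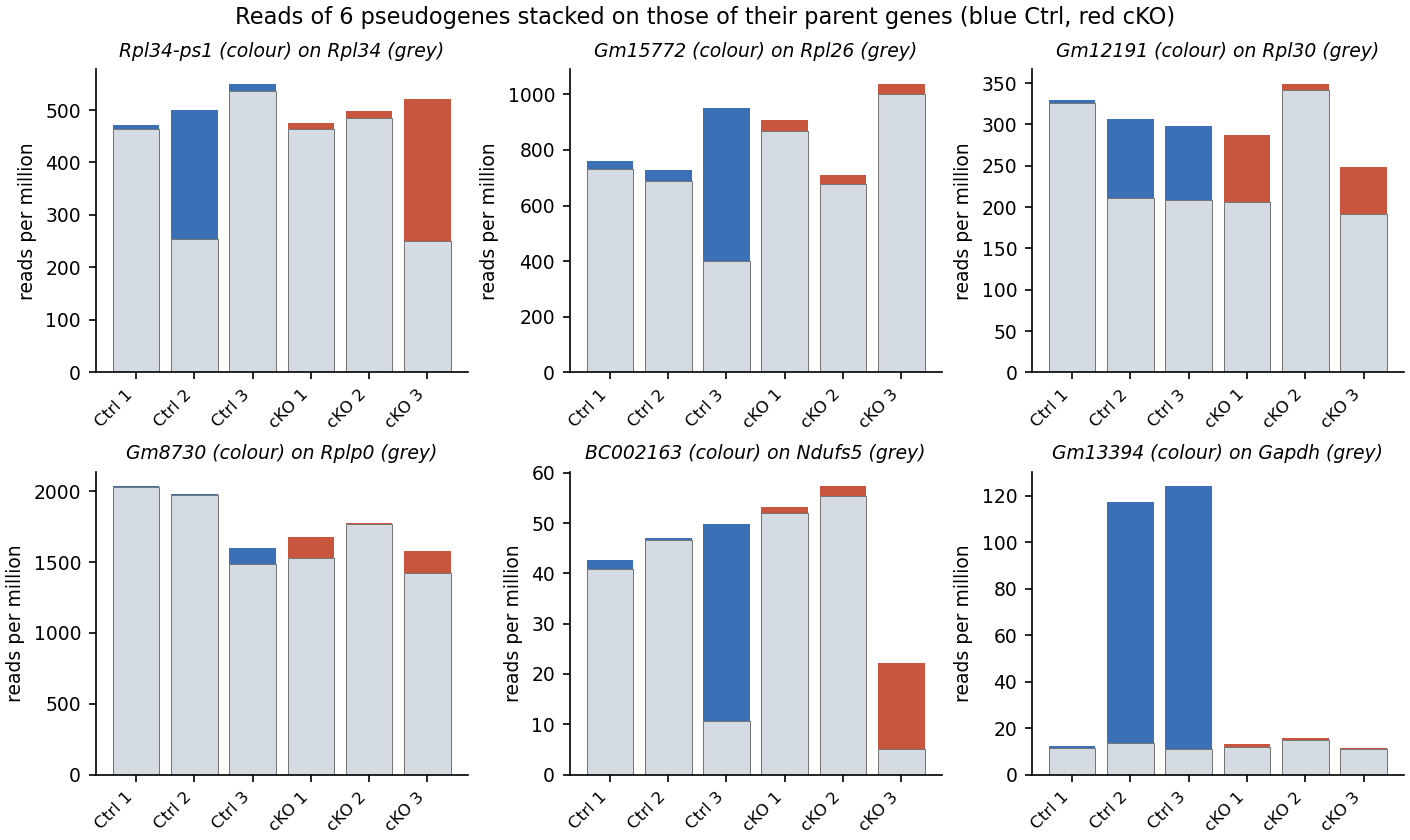
RPM, reads scaled to the total on genes of the library (vertical axes, from 0), in each library for 6 pseudogenes (blue for Ctrl, red for cKO) stacked on their parent gene (grey). *Rpl34-ps1* is high in Ctrl 2 and cKO 3, *Gm15772* in Ctrl 3, *Gm12191* in 4 libraries, *Gm8730* in 3 and *BC002163* in 2, where the grey bar of the parent is lower than in the other libraries, while for *Gm13394*, high in Ctrl 2 and Ctrl 3, the grey bars of *Gapdh* (157 to 249 reads) are of similar height in all 6. *Gm7993*, whose parent was not lower in every library where the copy was high, is not drawn. Among the 11 members with a range of at least 10 times, the parent was lower in this way in 6, a count with no expected number beside it.

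*Gm10241*, a copy of the ubiquitin-like modifier gene *Sumo2* with a range of 8.34 times, was lowest in Ctrl 2. It was at 169, 27.2 and 227 FPKM in Ctrl and 111, 201 and 148 in cKO, and *Sumo2* was highest in that library, with 52.8 FPKM against 7.39 to 44.7.

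The remaining members of the 11 were *Gm12396* (parent *Psenen*), *Gm4735* (*Eno1b*) and *Gm6969* (*Cox7a2l*). *Gm12396*, identical to its parent over the aligned stretch, had 158, 7 and 135 reads in Ctrl and 12, 21 and 98 in cKO. *Psenen* was at 29.0, 38.0 and 29.2 FPKM in Ctrl and 31.8, 45.2 and 28.1 in cKO. *Gm4735* had 77, 113 and 815 reads in Ctrl and 68, 94 and 43 in cKO, and *Eno1b* was also highest in Ctrl 3, with 1003 reads against 216 to 405. *Gm6969* had 31, 55 and 30 reads in Ctrl and 43, 35 and 263 in cKO and so stood out in cKO 3. Among the 11, libraries were divided into high and low for each member at the geometric midpoint between its highest and lowest FPKM. In 6 of the 11 the RPM of the parent was lower in every high library than in every low one, and in 9 of the 25 members with a range of at least 4 times. How easily this arises depends on the number of high libraries, and no expected count was worked out.

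Which libraries were high differed from member to member, and no pair of libraries stood apart in all of them. Ctrl 1 and cKO 2, the pair in which *Gm12191*, *Gm7993* and *Eif3s6-ps2* were low, were also the libraries with the lowest summed germ-cell markers in their groups, at 83.4 and 147 FPKM, and those with the most red blood cell markers, at 22971 and 10388 FPKM. Ctrl 2 had 166 and cKO 3 had 459 FPKM of germ-cell markers. The part of these cells in the levels of the members was not tested.

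cKO 3 was the lowest of the 6 libraries for 78 of the 200 members (39.0%), against 26.9% of the protein-coding genes of at least the same mean level. It was also the library with the fewest reads on genes. Among the 19 members shorter than 250 bases, the median log2 difference of cKO 3 from the median of the other libraries was −0.49. It was −0.01 among the 44 members of 250 to under 400 bases, −0.26 among the 66 of 400 to under 600 and −0.06 among the 71 of at least 600, and so did not follow length in order. The part of gene length in this was not tested. The summed level of all 200 members was 10299 ± 1186 FPKM in Ctrl and 9809 ± 69.5 in cKO (SD, n = 3 each; exact permutation p = 0.7).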

How the data were processed

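The 3 Ctrl and 3 cKO libraries were made from mouse ovaries of 16.5 dpc and grouped by the labels. The methods describe these as biological replicates. Per the labels and the study's methods, the authors purified poly(A) RNA, aligned paired-end reads to mm10 with HISAT2 2.0.5, used featureCounts to count reads and deposited a table of FPKM, reads scaled to gene length and to the depth of the library. The gene length column of the deposited table turned 100% of the values above 0 into whole reads within 0.05 of a read. The sources used here do not name the annotation release.

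Genes under a mean of 0.5 FPKM were left out, and log2(FPKM + 1) of the other 17180 was fitted with limma 3.58.1 in R 4.3.3, with an intensity trend, two-sided, and adjusted by the Benjamini-Hochberg method over all of them. Single values were compared by an exact permutation test. Transcripts of GENCODE M21 (GRCm38) were aligned with blastn 2.17.0; 196 of the 200 members had the coordinates of the table. Python 3.11.15, numpy 2.4.6, pandas 2.3.3 and matplotlib 3.10.9 were used. The fit was tested on simulated data.

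The members, gene groups and markers were chosen with earlier results of these data known. Named genes are *Srsf1*, *Gm9824*, *Gm10819*, the 10 members of highest mean, up to 8 rises and 8 falls past the unadjusted limit without overlap of the groups, the 5 of largest SD, the genes at the limit of membership, and their parents and host genes. Other members were named after their values had been seen, and 1 host gene is not reported here. The alternatives were other pseudocounts, minima and scalings, voom on the recovered reads, no trend, a replicate block and each library left out.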

Additional observations from a re-analysis of the deposited data

How the results depend on the processing

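The 6 rises and 3 falls among the members at the unadjusted limit of limma stayed within 1.5 times of these counts under pseudocounts of 0.1 and 0.5, no minimum and a minimum of 1 FPKM, median-ratio scaling, quantile normalization and no intensity trend. With voom on the recovered reads no member was lower in cKO (0) and 4 were higher. Leaving out 1 library gave 4 to 16 members higher and 0 to 21 lower, and for the ribosomal members 1 to 5 higher and 0 to 12 lower, with the highest counts in each case without cKO 2. No member fell without Ctrl 3 and 1 did without cKO 3. The median log2 fold change of the members ran from −0.06 to 0.04 in these fits, above 0 without Ctrl 3 (0.01) and without cKO 3 (0.04). The cause was not tested. *Vcp-rs* and *Gm13245* kept their call under every alternative. At an adjusted p below 0.05 no member passed, except *Gm13394* without Ctrl 1 (adjusted p = 0.00129). *Gm13394* is a member only through Ctrl 2 and Ctrl 3, and that fit left out the Ctrl library that lay among the cKO values. Nothing is read from this pass. Over all genes tested, the counts grew to 736 higher and 595 lower with no minimum.

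The replicate numbers are shared between groups, but same-numbered libraries did not deviate together over all genes tested, with correlations of −0.39, −0.03 and 0.12 for numbers 1, 2 and 3. With the replicate block, 8 members were higher and 3 lower, and 3 ribosomal members were higher and 1 lower. Not every library correlated best with its own number: Ctrl 1 did so with cKO 2 (0.35). Parents found by alignment were those named in the symbol for 50 of the 51 members that name one in the table. Members near the limit of membership rest on as few as 26 reads in a library, and the lowest value of any member was 5 reads.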
